A study of Mus musculus with 12 samples.

Results

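App, the mouse gene for the amyloid precursor protein, was followed along its length for DNA methylation in the brains of 12 mice. The gene (ENSMUSG00000022892.11) is transcribed from the minus strand of chromosome 16 (mm10 build) and spans 84949685 to 85173766. The rule took every CpG cytosine between 84949685 and 85178000 that had at least 10 reads in at least 9 of the 12 libraries. It gave 205 sites, a site being 1 cytosine on 1 strand, of 363 listed in this interval in any library and of 1697482 that met the same rule on the autosomes and chromosome X. The 205 sites stood for 130 CpG, or 4.56% of the 2854 CpG in the interval, and 108 of them were listed in all 12 libraries.

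The brain pieces held hippocampus and cortex together, were taken at 11 months of age, and came from 4 wild-type (Wt) and 8 Tg2576 (Tg) mice. Tg2576 mice carry, besides their own App gene, a transgene for human APP with a mutation of familial Alzheimer's disease, driven by the prion protein promoter. By label the Wt animals were 3 females and 1 male and the Tg animals 4 of each sex. Each animal gave 1 library, and the animal numbers only name them. Because the tissue mixes neurons, glia and other cells, each level is an average over the cell types present, and a change of cell composition and a change within a cell type cannot be told apart.

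Cytosine methylation in mammals sits mostly at CpG. Promoters rich in CpG, called CpG islands, are as a rule free of methylation in tissues that use the gene, whereas scattered CpG within transcribed genes usually carry it. The amyloid precursor protein is a single-pass membrane protein made in quantity by neurons. Its cleavage by beta-secretase and then gamma-secretase releases amyloid-beta, and cleavage by alpha-secretase within that peptide prevents it. Reduced representation bisulfite sequencing (RRBS) cuts DNA with MspI at CCGG and reads the fragments after bisulfite has turned unmethylated cytosine into uracil, so it sees short CpG-rich stretches of a gene and not the whole.

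The promoter was taken as 1000 bp on either side of the annotated start at 85173766. It held 140 CpG (7.0 per 100 bp, observed to expected ratio 0.789), and 45% of them met the rule on at least 1 strand. The rest of the gene held 2682 CpG (1.20 per 100 bp, observed to expected ratio 0.264), of which 2.50% met it. In all, 110 sites (63 CpG) lay in the promoter window, from 89 bp upstream of the start to 975 bp downstream, and 95 sites (67 CpG) lay deeper in the gene. No site farther upstream than 1000 bp met the rule. By the gene's annotation, 34 sites fell in exons, 151 in introns and 20 upstream of the start. Introns are numbered by the transcript App-201, which has 16 exons and 15 introns, and other transcripts could number them otherwise. Sites no more than 100 bp apart were joined into 19 stretches, numbered from the start of the gene. The level of a stretch in an animal was the mean over the sites it covered there. These sites could differ between animals.

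The sequences below are those on which the results turn. They begin with the part of the promoter around the annotated start. Stretch 7 holds the sites with the largest differences between genotypes among those called. Stretch 10 is the densely read stretch in intron 3, and stretch 11 is the highest. Stretch 12 has the widest range of levels, and stretch 19 lies near the 3′ end. All are from the mm10 reference, given 5′ to 3′ on the minus strand, which is the strand of App. Capitals mark each CpG that met the rule on at least 1 strand. Other CpG, whether read or not, are in lower case.
App promoter, chr16:85173737-85173957: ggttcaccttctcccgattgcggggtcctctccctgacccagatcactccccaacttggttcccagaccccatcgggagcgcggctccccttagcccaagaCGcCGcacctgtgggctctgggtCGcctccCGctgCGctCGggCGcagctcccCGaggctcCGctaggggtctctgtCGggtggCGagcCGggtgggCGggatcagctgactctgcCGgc
Stretch 7, chr16:85120666-85120752: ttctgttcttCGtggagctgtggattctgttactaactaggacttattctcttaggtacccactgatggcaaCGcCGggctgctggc
Stretch 10, chr16:85086367-85086567: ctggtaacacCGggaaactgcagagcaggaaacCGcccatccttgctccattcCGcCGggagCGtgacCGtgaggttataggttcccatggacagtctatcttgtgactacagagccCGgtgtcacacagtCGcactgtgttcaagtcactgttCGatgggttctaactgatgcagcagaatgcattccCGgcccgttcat
Stretch 11, chr16:85080154-85080271: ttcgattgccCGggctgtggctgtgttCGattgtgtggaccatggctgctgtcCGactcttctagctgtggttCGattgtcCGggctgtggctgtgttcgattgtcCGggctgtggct
Stretch 12, chr16:85076399-85076666: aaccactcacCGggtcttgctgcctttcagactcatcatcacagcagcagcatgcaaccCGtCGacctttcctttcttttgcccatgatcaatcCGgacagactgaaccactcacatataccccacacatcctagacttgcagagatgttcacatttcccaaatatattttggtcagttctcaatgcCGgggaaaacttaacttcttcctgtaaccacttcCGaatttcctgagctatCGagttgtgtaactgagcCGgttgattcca
Stretch 19, chr16:84957915-84957969: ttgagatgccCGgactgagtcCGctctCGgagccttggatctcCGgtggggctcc

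The printed promoter piece ends 30 bases into the annotated transcript, and all 14 of its marked CpG lie in its 3′ part. In stretch 11 a unit of 13 bases occurs 3 times, and how uniquely reads align to these copies was not tested. Stretch 7 crosses the junction of intron 1 and coding exon 2, so its CpG lie on both sides of a splice site. In the 300 bases of the RefSeq promoter table (250 before and 50 after the RefSeq start at 85173707), App had 30 CpG, against a median of 7 over all 32851 windows, and 88.3% of the windows had fewer. On both strands this window held the MspI site CCGG 3 times, a motif present in 52.8% of windows, and the GC-box letters GGGCGG 1 time, present in 35.7%. The TATA-box letters TATAAA were not in it, and 13.6% of windows held them. Neither motif contains the other, and a match is only a description of letters.

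Methylation was near 0 across the promoter and rose far inside the gene. The mean level of each of the 110 promoter sites was under 5% (median 0.656%, highest 4.35%), and 453 of 55558 promoter reads were methylated. Of the 95 sites in the body of the gene, 7 were under 5%, 24 between 5% and 20%, 43 between 20% and 80% and 21 over 80% (median 42.5%, range 1.85% to 98.5%), and 12103 of 31782 reads were methylated. In the promoter, 25 sites had no methylated read in any library. These had 304 to 801 reads each, which allows a level of up to 0.375% to 0.987% (a limit of 3 counts, for counting error only).

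**Figure D1:**
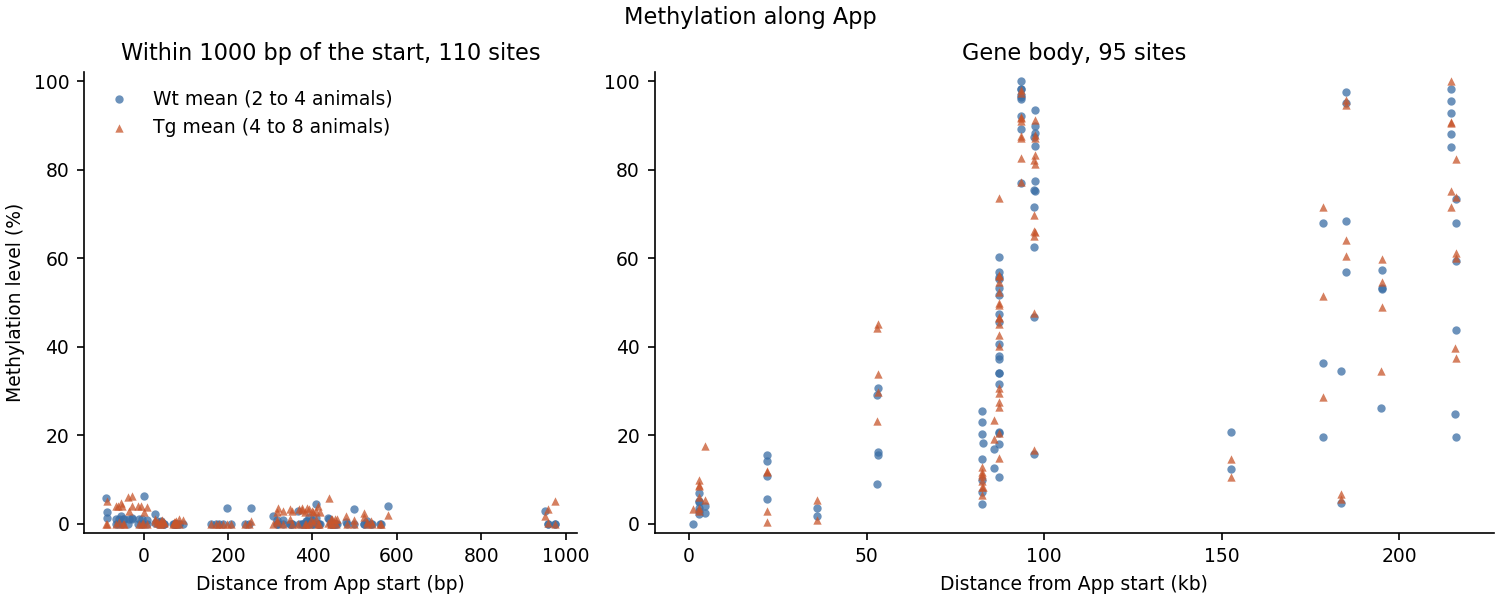
Mean methylation level (%) of each App site in Wt animals (circles) and Tg animals (triangles) against its distance from the annotated start, in bp for the 110 promoter sites (left) and in kb for the 95 body sites (right). Promoter sites lie near 0 in both genotypes, while body sites range from 1.85% to 98.5%, with stretch means of 25.7% at 53.1 kb and 91.1% at 93.6 kb.

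The site at the annotated start itself (position 85173766, plus strand) had a mean level of 4.08%. It read 9.84%, 0%, 4.35% and 10.7% in the 4 Wt animals, and from 0% to 6.67% in the 6 Tg animals that covered it. Its neighbour on the other strand, position 85173767, had 1 methylated read of 485. The highest promoter site by mean lay 438 bp inside the gene (85173328, plus strand, 4.35%), and the highest value of any promoter site in 1 animal was 35.3%, in Tg female 3 at 28 bp upstream of the start (85173794, plus strand). That same site was at 0% to 4.35% in the other 9 animals that covered it.

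For a comparison within animals, the 73 promoter and 35 body sites listed in all 12 libraries were averaged per animal. The body exceeded the promoter in 12 of 12 animals, by 26.8 ± 2.81 points (SD, n = 12, range 22.6 to 30.7). The two-sided exact permutation test that exchanges the regions within animals gave p = 0.000488, the smallest value it can give. The 35 sites came from 8 stretches and favoured the lower ones. Over all the sites that each animal covered, the body exceeded the promoter by 41.8 points, which is more than 1.5 times as far.

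Promoter levels were low in both genotypes, and the difference was not larger than the spread between animals. They were 0.602%, 0.103% and 0.521% in the Wt females and 0.365% in the Wt male. In Tg females they were 0.538%, 0.466%, 0.630% and 3.10%, and in Tg males 0.645%, 2.81%, 0.595% and 0.847%. The promoter was under 1% in 6 of the 8 Tg animals, with Tg female 4 and Tg male 2 standing above the rest. The mean of the Wt animals was 0.398% ± 0.220 (SD, n = 4), and that of the Tg animals 1.20% ± 1.09 (SD, n = 8). The difference of 0.806 points had p = 0.109 by a two-sided exact permutation test over 495 splits (95% interval from inverting the test −0.497 to 2.45, smallest p possible 0.00202).

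**Figure D2:**
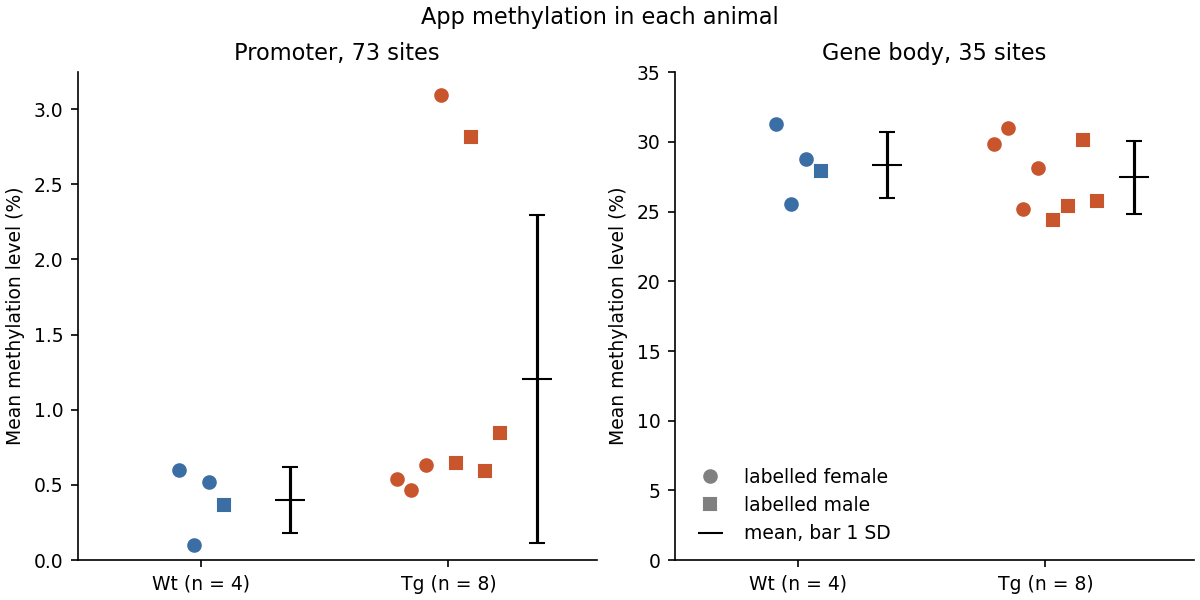
Mean methylation level (%) of App in each animal, over 73 promoter sites (left) and 35 body sites (right), with circles for animals labelled female, squares for animals labelled male and a bar for the mean with 1 SD. Tg female 4 (3.10%) and Tg male 2 (2.81%) lie above all other animals in the promoter, whereas Wt and Tg overlap in the body.

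The high promoter values of those 2 animals came from 1 run of sites on 1 strand. Among the 73 promoter sites listed in all libraries, Tg female 4 had a methylated read at 18, all on the plus strand. At these 73, 0 of 37 minus-strand sites had one, and over all promoter sites it covered, 1 of 48. Of the 18 plus-strand sites, 16 followed each other without a gap, from 316 to 438 bp inside the gene (85173328 to 85173450), in intron 1. Each of the 16 had 1 to 2 methylated reads of 13 to 16. Tg male 2 had the same 16 sites, with 4 to 5 methylated reads of 38 to 40 at each. In the other 10 animals, at most 2 of these 16 sites had a methylated read. Over the remaining 57 promoter sites the difference between Tg and Wt was 0.170 points (exact permutation p = 0.232), with 0.446% in Tg female 4 and 0.725% in Tg male 2. This set of sites was chosen after the values were seen.

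**Figure D3:**
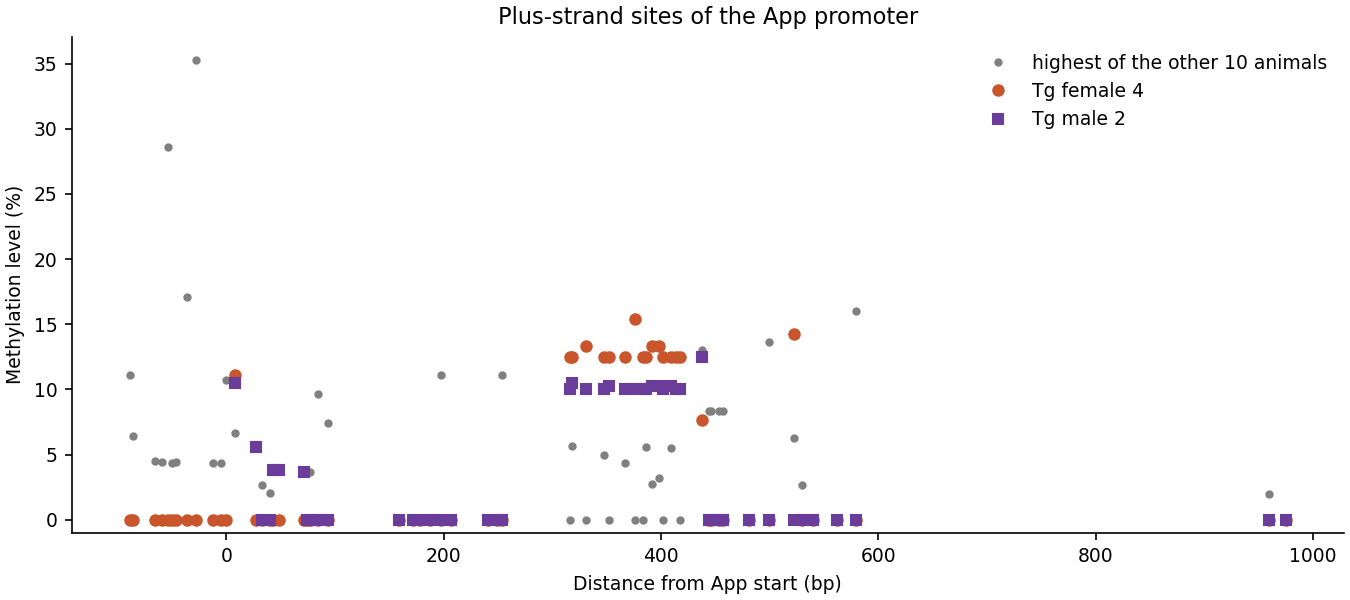
Methylation level (%) of plus-strand promoter sites of App against distance from the start (bp) in Tg female 4, in Tg male 2 and, as grey points, the highest of the other 10 animals. Between 316 and 438 bp, 16 successive sites were methylated in both animals, at 1 to 2 reads and 4 to 5 reads per site.

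Runs of the same kind were found elsewhere in the promoter, in both genotypes. In Wt female 3, 14 successive plus-strand sites from 89 bp upstream to 27 bp downstream of the start, the part printed above, had 1 to 4 methylated reads of 44 to 53. In Tg female 2, 9 successive minus-strand sites from 87 to 1 bp upstream had 1 to 2 methylated reads of 10 to 43. Of the 47 promoter CpG that met the rule on both strands, the mean levels of the strands differed by a median of 1.45 points and at most by 3.85.

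Deposited read counts at App were mostly even numbers. Of the methylated counts above 0 at App sites, 75.5% to 94.0% were even, depending on the library, and so were 62.7% to 83.2% of the coverages. Over all autosomal sites listed in all libraries, 84.7% to 88.2% of such counts were even, with 34.8% to 39.2% equal to 2 and 4.48% to 5.38% equal to 1. The libraries were sequenced in paired-end mode. Whether both reads of a pair were counted over the bases they share was not tested.

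In the body of the gene, the mean level of Wt and Tg animals differed by less than the spread between animals. Body levels were 31.3%, 25.5% and 28.8% in the Wt females and 27.9% in the Wt male. They were 29.9%, 31.0%, 25.2% and 28.1% in the Tg females and 24.4%, 25.4%, 30.1% and 25.7% in the Tg males. The ranges of the genotypes overlapped almost fully. The mean of the Wt animals was 28.4% ± 2.37 (SD, n = 4) and that of the Tg animals 27.5% ± 2.62 (SD, n = 8). The Tg minus Wt difference was −0.902 points (two-sided exact permutation p = 0.556, 95% interval −4.52 to 2.67). Leaving out Wt female 1 turned it to 0.0586 points. Within Tg, females had 28.5% ± 2.55 and males 26.4% ± 2.56 (SD, n = 4 each), a difference of 2.12 points (exact permutation p = 0.314, smallest possible 0.0286).

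Along the gene the level did not climb steadily. The first part of intron 1 stayed low, with 5.90% in stretch 3 (2.88 kb from the start), 9.37% in stretch 4 (4.52 kb), 7.51% in stretch 5 (21.9 kb) and 3.04% in stretch 6 (36.2 kb). Stretch 7, at the edge of coding exon 2 (53.1 kb), was at 25.7%. Intron 3 rose from 11.8% in stretch 8 (82.6 kb) and 19% in stretch 9 (85.9 kb) to 41.2% in stretch 10 (87.3 kb). The highest level followed not far beyond it, 91.1% in stretch 11 in intron 4 (93.6 kb), where the annotation also places Gm49227. Stretch 12 in intron 5 (97.2 kb) was at 71.1%.

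Farther into the gene the levels alternated. Stretch 13 in intron 9 (152.6 kb) was low again, at 14%. In intron 11, stretch 14 was at 47.2%, stretch 15 at 10.9%, stretch 16 at 79% and stretch 17, which lies in Gm10791, at 48.8%, although stretches 15 and 16 lie at 183.6 and 184.9 kb. In intron 15, stretch 18 (214.5 kb) was at 86.9% and stretch 19 (215.8 kb) at 56.7%. Stretch 11 was the highest in this order, and its range over animals, 77.3% to 95.7%, overlapped that of stretch 18, 72.2% to 94.4%. The ranges over animals of stretches 10, 14, 17 and 19, with means of 41.2% to 56.7%, overlapped too.

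**Figure D4:**
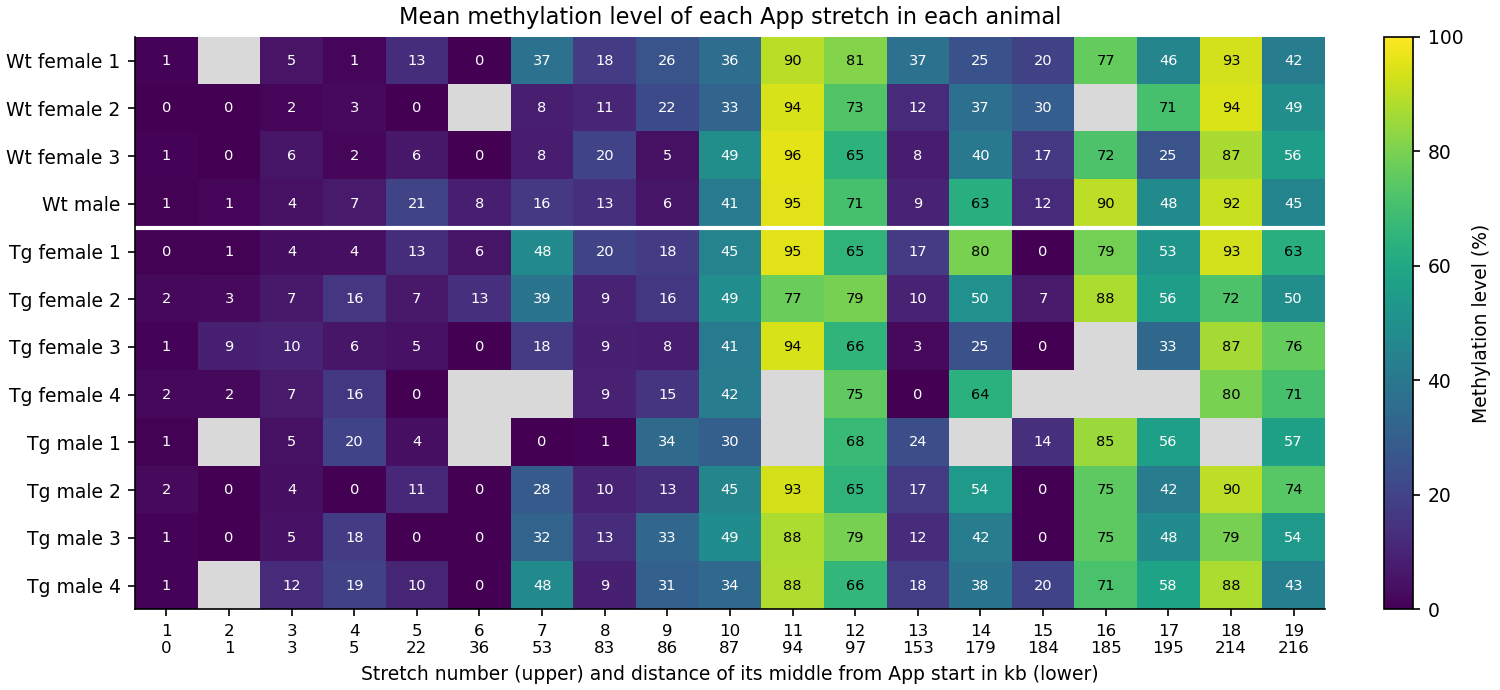
Mean methylation level (%) of the 19 App stretches (columns, numbered from the start, with the distance in kb below) in each of the 12 animals (rows, Wt above the white line), with grey cells where an animal had no member site. Each level is a mean over the member sites that the animal covered, which could differ between animals. No animal exceeds 20.6% in stretches 1 to 6 or falls under 64.6% in stretches 11, 12, 16 and 18, while stretch 14 runs from 24.8% to 80%.

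Single CpG within a stretch differed widely as well. In stretch 12 the first CpG of the printed sequence (85076656, minus strand) had a mean of 16.4%, while the last (85076409, plus strand) had 91.9%. In stretch 10 the sites ran from 13.5% at its first CpG to 66.3%. Of the 28 body CpG that met the rule on both strands, the mean levels of the strands differed by a median of 3.38 points, and 2 differed by more than 10. The largest strand difference was at 85076603 in stretch 12, with 69.1% on the plus strand and 83.9% on the minus strand, the minus strand being higher in 9 of 9 animals. The lowest body site was 85137605 (minus strand, 36161 bp from the start, 1.85%), and the highest was 84959255 (plus strand, 214511 bp, 98.5%), with 143 of 145 reads methylated.

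Differences between genotypes at single sites were sought in a fit over the whole table. In the binomial model, methylated against unmethylated reads were regressed on genotype with sex as a covariate. A site was called at a Benjamini-Hochberg adjusted p under 0.1 and a difference of at least 10 points in the level over all reads. At App 14 of 205 sites were called (6.83%), 8 higher and 6 lower in Tg, against 4.39% of all 1697160 sites tested (2.39% higher and 2% lower). None of the 14 lay in the promoter, and they fell into 6 stretches. This model treats reads as independent draws. With an F test that allows animals of a group to differ beyond counting error, 0 of 205 sites were called, against 0% of all sites, and the smallest adjusted p at App was 0.512. By that test 18 App sites (8.78%) had an unadjusted p under 0.05, against 9.42% of all sites.

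The spread between animals of a group was larger than counting error at App. The dispersion, which is 1 where reads vary as independent draws, had a median of 2.17 at App sites and of 1.29 at all sites, and it lay between 1.64 and 9.69 at the 14 called sites. Among sites with a level of 20% to 80% it was 3.52 at App (44 sites) and 3.66 in the whole table (190798 sites). With every count halved, chosen after the even counts were seen, the binomial model called 1 App site, against 0.376% of all sites.

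**Figure D5:**
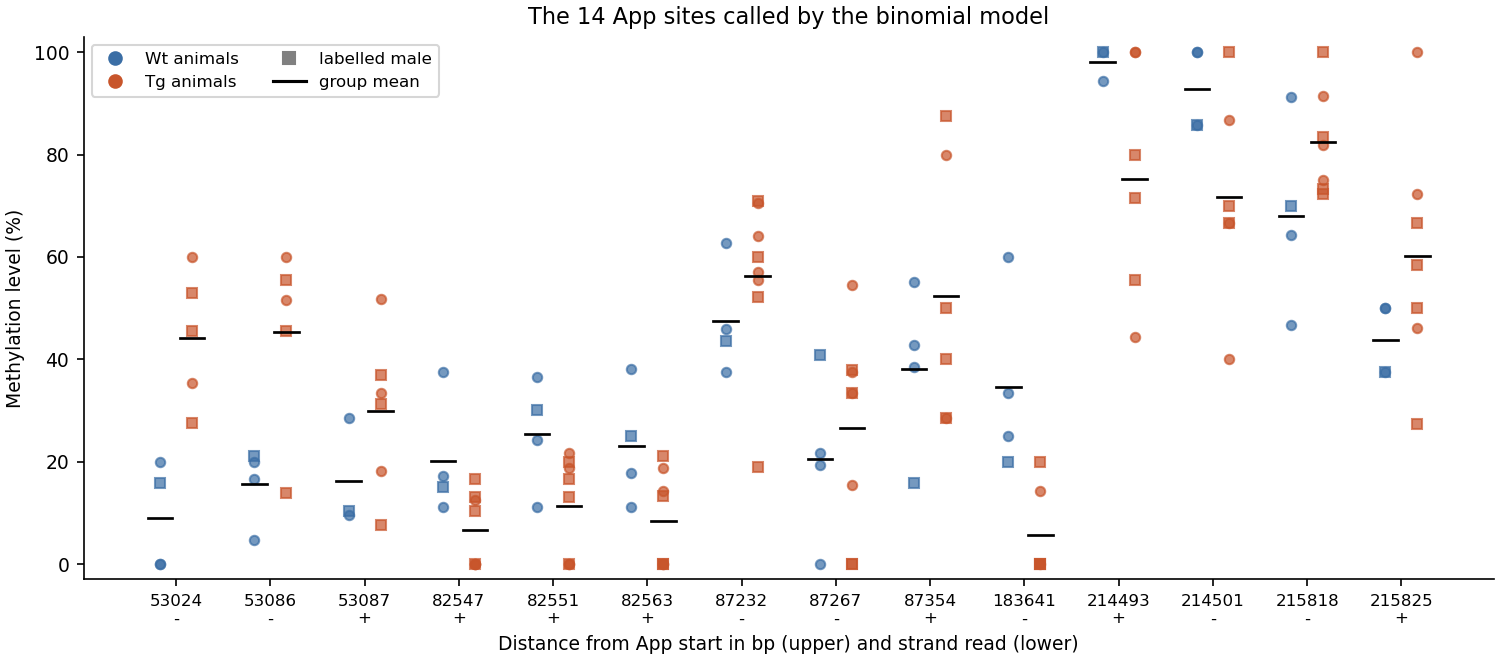
Methylation level (%) of each animal at the 14 App sites called by the binomial model, ordered by distance from the start in bp, with the strand read below, Wt animals on the left and Tg animals on the right of each pair, squares for animals labelled male and a line for each group mean. Ranges of Wt and Tg overlap at 13 of the 14 sites, and the exception is the first, 53024 bp from the start.

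Stretch 7 held the 2 called sites with the largest differences. At 85120742 (minus strand, intron 1, 53024 bp from the start), the Wt females read 20%, 0% and 0% and the Wt male 15.8%. The 5 Tg animals that covered this site read 35.3% and 60% (Tg females 1 and 2) and 27.6%, 45.5% and 52.9% (Tg males 2 to 4). It was the 1 App site at which no Tg animal overlapped a Wt animal, which held for 0.248% of all sites. The means were 8.95% ± 10.5 (SD, n = 4) and 44.3% ± 13.1 (SD, n = 5). The level over all reads was 33.5 points higher in Tg (adjusted p = 7.73e-05 by the binomial model, 0.525 by the F test). Libraries had 10 to 41 reads there, and 3 Tg libraries had fewer than 10. It was also the 1 site called with halved counts (adjusted p = 0.0766 by the binomial model).

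On the exon side of the same stretch, the CpG at 85120679 and 85120680 in coding exon 2 was called on both strands. On the minus strand it read 20%, 16.7%, 4.76% and 21.1% in Wt and 51.5%, 60%, 13.8%, 45.5% and 55.6% in the 5 Tg animals that covered it. Only Tg male 2 fell within the Wt range. The difference over all reads was 29.5 points on the minus strand (adjusted p = 0.000334 by the binomial model, 0.525 by the F test) and 16.4 points on the plus strand (adjusted p = 0.0302 by the binomial model, 0.605 by the F test). The human transgene holds the coding sequence matching this exon. Coverage on the minus strand was 10 to 33 reads in Tg and 10 to 42 in Wt, not scaled to the depth of the libraries. Whether reads of the transgene align to this exon was not tested. The plus strand of the intronic CpG, 85120741, differed by 1.74 points and was not called, and with its strands summed that CpG was 14.7 points higher in Tg.

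Averaged over the sites that each animal covered, the genotypes overlapped in stretch 7. No site of this stretch was listed in all 12 libraries, so the animals were not averaged over the same sites. Its mean level was 37.5%, 8.33%, 8.05% and 16.5% in Wt, 47.7%, 38.7% and 17.9% in the 3 Tg females with reads, and 0%, 28.3%, 32.0% and 47.6% in the Tg males. Both the lowest and the highest animal were Tg, but the lowest, Tg male 1, covered none of the called sites of the stretch. Reads were then summed over the sites of each stretch. Of 14 App stretches with at least 3 sites, the binomial model called 2, stretch 7 (16.7 points higher in Tg, adjusted p = 1.79e-09) and stretch 19 (10.7 points higher, adjusted p = 0.000219), against 5.39% of 77200 stretches. The F test with a dispersion, on the same binomial counts, called 0 of 14, against 0% of all (adjusted p = 0.890 for both stretches, 0 of 14 at an unadjusted p under 0.05). Leaving out Wt female 1, Tg female 1 or Tg male 2 brought the count by the binomial model to 1, against 9.11%, 5.59% and 6.15% of all stretches.

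Among the plus-strand sites of stretch 8, in intron 3, 3 neighbours were lower in Tg by the binomial model. At 85091219 the Wt animals read 17.2%, 11.1%, 37.5% and 15%, and 4 of the 8 Tg animals read 0%, the others 10.3% to 16.7%. At 85091215 the means were 25.5% ± 10.8 (SD, n = 4) and 11.3% ± 9.68 (SD, n = 8), and at 85091203 they were 23.0% ± 11.5 and 8.43% ± 9.32. The 3 sites had nearly the same number of reads in each library (14 to 76), so they are not independent. Their differences were −12.0, −13.8 and −12.1 points (adjusted p by the binomial model 0.0210, 0.0197 and 0.0253, by the F test 0.541, 0.525 and 0.604). Without Wt female 3 the differences at 85091219 and 85091203 were −6.35 and −7.07 points (adjusted p by the binomial model 0.192 and 0.181). With the strands of each CpG summed, the 3 differences were −3.48, −6.52 and −4.85 points and none was called (5.08% of all CpGs with strands summed were).

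The remaining called sites followed no common direction. In stretch 10, 85086534, 85086499 and 85086412 were 10.9, 12.3 and 13.6 points higher in Tg by the binomial model, with Wt animals at 0% to 40.9% and Tg animals at 0% to 54.5% at the second. That second difference was 4.63 points without Wt female 1 and 5.57 without Tg female 1. The third was 3.35 points without the Wt male, 7.61 without Tg female 2 and 7.81 without Tg male 4, and none of these 5 refits called the site. With strands summed the 3 differences were 1.07, 8.31 and 2.97 points. In stretch 15 the called site, 84990125 (minus strand, intron 11), read 25%, 60%, 33.3% and 20% in Wt. There it was at 0% in 4 of the 6 Tg animals with reads, 14.3% in Tg female 2 and 20% in Tg male 1, a difference of −26.7 points (adjusted p = 0.000362 by the binomial model, 0.525 by the F test). The opposite strand of that CpG differed by 1.69 points, and the strands summed by −11.1 points. In stretch 18, 84959273 and 84959265 were 24.7 and 19 points lower in Tg, from Wt means of 98.1% and 92.9%, and with strands summed the differences were −9.28 and −15.2 points. In stretch 19, 84957948 and 84957941 were 13.2 and 15.6 points higher, and with strands summed 8.28 and 7.62. The first was 8.28 points without Wt female 1 and 21 without Wt female 3.

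Of the 14 called sites, 13 had a member site on the opposite strand of the CpG, and 1 CpG was called on both. Of the 14, 3 sites, 85120742, 85120680 and 84990125, kept the call in each of the 12 fits that left out 1 animal. Leaving out an animal that did not cover a site could not change its difference. Such animals were Tg female 3 and Tg female 4 at all 3 sites, and Tg male 1 at 85120742 and 85120680. Without the library labelled Wt male 9 of the 14 were called, and in libraries labelled female alone 9 of the 14. That library had a mean level of 19.9% on chromosome X, against 20.7% to 23.0% in libraries labelled female and 5.50% to 5.67% in Tg libraries labelled male, which goes against its label. Coverage summed over all listed cytosines, in which a read counts at each CpG it crosses, ran from 33619981 (Tg female 4, one of the animals with the promoter run) to 131446104 (Tg female 1).

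Set beside other genes, App lay near the middle in its promoter level and above the middle in its body level. Its promoter level, averaged over the 12 animals, was higher than that of 56.8% of 11958 genes with at least 5 sites in all libraries (0.935% against a median of 0.862%). Its body level of 27.8% was higher than that of 69.1% of 5820 genes (median 11.3%). The promoter difference between Tg and Wt, 0.806 points, was above that of 94.3% of genes. The quartiles of all genes were −0.249 and 0.265. Over the 57 sites outside the run of 16 sites it was 0.170 points. That run was picked after the values were seen and nothing was taken from other genes, so this value has no like rank. At a minimum of 20 reads it was −0.00529 over 25 sites. These leave out the run, where Tg female 4 had 13 to 16 reads. In the body, the difference was above that of 19.3%. Among 1614 genes with a body level within 15 points of App, those whose body level varied most like App over the 12 animals were Cotl1, an actin-binding protein (Pearson r = 0.882), Igfbp5, which binds insulin-like growth factors (0.876), Alpl, the tissue-nonspecific alkaline phosphatase (0.816), Epb41l4a (0.814) and Cdc42ep5 (0.802). The median r over the 1614 genes was 0.275, and all points share the same 12 libraries and their depth.

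The promoters of 26 genes of the APP family and of APP processing were described in the same fit. Here, and for all protein-coding promoters, a promoter was 1000 bp on either side of the start of any annotated transcript. For App and the genes set beside it above, only the gene start was used. Of 2003 promoter sites tested in 25 of these genes, the binomial model called 4 (0.200%), against 0.966% of sites in all protein-coding promoters, and the F test called 0. By that test 187 sites (9.34%) had an unadjusted p under 0.05, against 9.42% of all sites. The family members Aplp1 and Aplp2 had promoter levels of 0.862% ± 0.526 and 1.29% ± 1.28 in Wt (SD, n = 4), and of 0.678% ± 0.405 and 0.674% ± 0.472 in Tg (SD, n = 8), with no site called. No site was called in the alpha-secretases Adam10 and Adam17 or in beta-secretase, Bace1. Leaving out Wt female 3 raised the list's count to 7 (0.349%), and leaving out the Wt male lowered it to 2 (0.0999%). Of all sites, in promoters or not, 4.82% and 3.68% were called in these fits. The share over promoter sites alone was not computed for them.

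Among the gamma-secretase genes, 1 site of Psen2, which encodes presenilin 2, was called (chromosome 1, 180246021, plus strand). It read 100% in all 4 Wt animals and 80.3% ± 9.18 (SD, n = 6) in Tg. The difference over all reads was −21.3 points (adjusted p = 0.000683 by the binomial model, 0.512 by the F test). This site was unlike the rest of the Psen2 promoter. Over 76 sites listed in all libraries, which leave it out, the level was 1.04% ± 0.506 in Wt (SD, n = 4) and 0.802% ± 0.543 in Tg (SD, n = 8). Apba2, a cytoplasmic adaptor that binds the tail of APP, had 1 site 15.9 points higher in Tg (chromosome 7, 64501410). In Apbb1, another such adaptor, the strands of a single CpG were called in opposite directions, −14.1 points at 105568542 and 14.2 points at 105568543. Lrp1, a receptor that takes up amyloid-beta, had the highest promoter level of the list, at 5.30% ± 2.11 in the Wt animals (SD, n = 4) and 6.07% ± 1.49 in the Tg animals (SD, n = 8). Prnp, the mouse's own prion protein gene, was listed because a prion protein promoter drives the transgene. It had 5 promoter sites tested and none listed in all libraries. Ide, a peptidase that degrades amyloid-beta, had none tested.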

How the data were processed

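DNA methylation was measured by RRBS in 12 mouse brain samples, 1 library per animal. Per the labels and the study's methods, a service company made and sequenced the libraries in paired-end mode, aligned them to mm10 with Bismark and called methylation with the Bismark Methylation Extractor, and the authors read the alignments with methylKit. Tool versions are not given in the sources used here. The deposited values are counts per cytosine (coverage, methylated, unmethylated), with strands apart, animals not pooled and a lowest coverage of 10 reads.

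The libraries were joined by position over chromosome X and the 19 autosomes, leaving out 11 positions listed more than once. Groups followed the labels of genotype and sex. The members and gene lists were chosen with earlier results of these data known. Each site with 10 reads in at least 9 libraries, including at least 2 Wt and 4 Tg animals, was fitted by logistic regression, testing genotype beside sex by the likelihood ratio (chi-square) and, as an alternative, by the same model with a dispersion per site and an F test. Adjustment over all sites was by Benjamini and Hochberg. The thresholds and the sex covariate follow the study's methods, and the form of the test was chosen here. Promoter and body levels per animal, the unweighted mean of the percent methylated over sites listed in all libraries, were compared by exact permutation tests. Stretch levels per animal were means over the sites of the stretch that the animal covered. The sites named were those called by the binomial model, the sites with the highest and lowest mean levels and the site nearest to the start, and other sites were chosen after their values were seen. The 5 genes most like App were those with the highest Pearson r.

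For App and the genes ranked beside it, the start was that of the GENCODE M21 gene. For the APP list and for sites in all protein-coding promoters, the starts of all their annotated transcripts were used. Promoter sequences came from RefSeq. All 205 positions were a cytosine of a CpG in mm10. The fits were tested on simulated data. Python 3.11.15, numpy 2.4.6, pandas 2.3.3, scipy 1.17.1 and matplotlib 3.10.9 were used. At most 4.06% of sites had equal counts in any pair of libraries, so each library was 1 replicate. PCR reads without molecular identifiers are not independent molecules, so limits set from counts cover counting error only. Alternatives changed the coverage minimum, the site set, the weighting, the strands, the promoter width, the covariate and the libraries. The rule left sites just outside it. Those listed in exactly 8 libraries had median levels of 0% (16 promoter sites) and 73.1% (10 body sites), and those in exactly 9 had 2.22% (13 sites) and 59.3% (17 sites).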

Additional observations from a re-analysis of the deposited data

Results flagged for a closer look

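Of 74 groups of 4 to 10 animals in which the highest or lowest value could be set against Dixon's critical value, 8 held a value beyond it, where 1 in 20 groups would do so by chance (3.7 groups). In the App promoter, Tg female 4 was at 3.10% against 0.466% to 0.630% in the other Tg females, and Tg male 2 was at 2.81% against 0.595% to 0.847% in the other Tg males. Over all sites of stretch 1, which is most of the promoter, Tg male 2 was at 2.42% against 0.544% to 0.845%. Both animals carry the run of 16 methylated plus-strand sites in intron 1, and without those sites Tg female 4 was at 0.446% and Tg male 2 at 0.725%. Tg female 4 also had the lowest coverage summed over listed cytosines of the 12 libraries, 33619981. The part of depth in its value was not tested.

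Farther into intron 1, Tg female 3 was at 8.74% in stretch 2, against 0% to 2.56% in the other 5 Tg animals that covered it. In stretch 3, Tg male 4 was at 12.4% against 4.26% to 4.71% in the other Tg males. In stretch 4, which holds 2 sites, Tg male 2 was at 0% against 17.7% to 20%. In stretch 8, in intron 3, Tg female 1 was at 20.4% against 8.69% to 9.46% in the other Tg females. In stretch 13, in intron 9, Wt female 1 was at 37.2% against 7.73% to 12.3% in the other Wt animals.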

How the results depend on the processing

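No paired analysis was possible because the labels give no replicate numbers that tie Wt to Tg animals. Only body and promoter of the same animal were compared in pairs. The body minus promoter difference within animals kept its direction and stayed past the threshold under all alternatives (22.3 to 41.8 points, exact permutation p = 0.000488, and 26.5 to 27.2 points without 1 animal, exact permutation p = 0.000977). The promoter difference between Tg and Wt passed the threshold under no alternative. It was −0.00529 points at a minimum of 20 reads (25 sites, which leave out the shared run), 0.170 without the shared run and 0.536 to 0.911 without 1 animal. The body difference turned positive at 20 reads (8.58 points, 4 sites, exact permutation p = 0.0747), with levels over all reads (1.31), with strands summed (0.0515) and in libraries labelled female (0.00529), and ran from −1.85 to 0.0586 without 1 animal. Tg females exceeded Tg males by 8.62 points at 20 reads (4 sites, exact permutation p = 0.0286), by 0.410 points over all sites that each animal covered (exact permutation p = 0.943) and by 1.3 to 3.37 without 1 animal. The cause of these changes was not tested beyond the fewer sites.

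The 14 App sites called (6.83%, against 4.39% of all sites) became 0 with the F test (0% of all) and 1 of 205 with halved counts (0.376% of all). They became 5 of 108 with 10 reads in all 12 libraries (1.72% of all), 2 of 98 at 20 reads (1.85%) and 6 of 139 with strands summed (5.08%). Of 205, 3 were called at a difference of at least 25 points (0.479% of all), 27 in libraries labelled female (5.37%), 15 without the covariate (4.76%) and 13 to 20 without 1 animal (3.68% to 5.36%). Of 245 refits of the 14 sites, 172 kept the call and 0 reversed. The 2 stretches called became 0 with the F test (0% of all stretches) and 1 to 3 without 1 animal (5.51% to 9.11% of all stretches). With halved counts (4.6% of all stretches) and without the covariate (5.52%) they stayed 2. In libraries labelled female they were 3 of 13 (9.59%). The fits by stretch were not planned. The 4 promoter sites called in the APP list became 0 with the F test, 0 with halved counts and 0 with 10 reads in all 12 libraries. They became 1 at 20 reads and 2 with strands summed. Within 2000 bp of a transcript start they were 5, and without 1 animal 2 to 7. In libraries labelled female they were 13 (11 higher and 2 lower in Tg, 0.643% of the list's sites). The shares of all sites are those given for App, and they cover sites in and outside promoters. A share over promoter sites alone was computed for the main fit only. For the list, halved counts, read minimums, summed strands and the female subset were chosen after seeing the data. Body sites had a median of 27 reads per library and promoter sites 40. Only 4.56% of the CpG of the interval met the rule, so differences at the other CpG could not be seen here.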
